A study of Mus musculus with 24 samples.

Results

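Sphingosine-1-phosphate (S1P) and adhesion G protein-coupled receptor (GPCR) genes were examined in the conversion of amniotic cells to endothelial cell (EC)-like cells. The genes were the S1P receptors S1pr1, S1pr2 and S1pr3, the S1P-producing kinase Sphk1, the S1P exporter Spns2, and the adhesion GPCRs Adgrf5 (Gpr116), Adgrl4 (Eltd1), Adgra2 (Gpr124) and Adgrg1 (Gpr56). They were taken by symbol after RefSeq transcript values of the same gene were summed, and are 9 of 22282 genes. All 9 passed the filter on low values, a mean over the 24 libraries of 1 FPKM or more, and entered the tests. FPKM are fragment numbers scaled by transcript length and library size, so that levels of different genes can be set side by side.

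The 24 libraries fell into 8 groups of 3, all labelled C57BL/6J. Mouse amniotic cells (MACs) came from the amniotic fluid of E11.5 to E13.5 embryos, and a culture pooled the embryos of a litter. RACVECs were MACs that carried lentiviruses for Etv2, Erg and Fli1, transcription factors of the Ets family driven by the Pgk promoter. Akt-MACs and Akt-RACVECs carried in addition a lentivirus for myristoylated, constitutively active Akt, and Sox17-RACVECs were RACVECs with a Sox17 lentivirus. Akt-LECs and Akt-liver ECs were ECs of lung and liver that had been cultured with the same Akt. LSECs were liver ECs sorted directly from mice without culture. Akt was therefore shared by Akt-RACVECs, Akt-MACs, Akt-LECs and Akt-liver ECs and was not given to MACs, RACVECs, Sox17-RACVECs or LSECs. The study describes the lung ECs and the directly purified liver ECs as adult, whereas the amniotic cells were embryonic. Where amniotic or converted cells are compared with these ECs, age and cell source cannot be told apart. RACVECs were also grown for weeks on fibronectin in EC medium with VEGF-A and the TGF-beta inhibitor SB431542, whereas MACs were kept in AmnioMAX medium, so that factors and medium cannot be told apart. The study describes the libraries as separate isolates. Whether isolates of different groups came from the same litter is not stated in the sources used here. The file header of RACVEC 3 names Flk1, GFP+ and a day number, which those of RACVECs 1 and 2 do not, so that it may have been sorted or taken at another time.

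S1P is a lipid that is carried in blood and lymph and acts on GPCRs of the cell surface. Sphingosine kinases make it inside cells and Spns2 exports it from ECs. S1pr1 couples to Gi and Rac and strengthens EC junctions, whereas S1pr2 couples also to G12/13 and loosens them, and S1pr3 is used by smooth muscle and other mesenchymal cells as well as by ECs. Adhesion GPCRs have long extracellular parts that contact matrix or neighbouring cells. Adgrf5 and Adgrl4 are known from vascular endothelium, Adgra2 is a co-receptor for Wnt7 in brain vessels and is also made by pericytes and fibroblasts, and Adgrg1 binds collagen III.

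Most marker genes were on the side of the labels. The summed FPKM of 9 endothelial markers was 53.2 to 95.4 in MACs, 39.6 to 67.5 in Akt-MACs and 2171 to 4479 in RACVECs, and at least 5553 in each library of the other groups. In LSECs, 5 markers of sinusoidal endothelium summed to between 36088 and 48606. Etv2 was at 0 in the MACs, Akt-MACs, Akt-LECs, Akt-liver ECs and LSECs and between 127 and 859.93 FPKM in the RACVECs and Akt-RACVECs. In Sox17-RACVECs it was 458, 0 and 378, so that the library labelled Sox17-RACVEC 2 did not show Etv2, a factor that defines RACVECs. Fli1, another such factor, was 315, 434 and 272 in Sox17-RACVECs. It was also 181, 255 and 426 in Akt-LECs, which were not given the Ets lentiviruses. In MACs Fli1 was 0, 1.61 and 0.65, and in Akt-MACs 2.36, 30.2 and 84.4. The Sox17 transcript was 5.09, 40.1 and 200 in Sox17-RACVECs and 0 in the RACVECs. Without a Sox17 lentivirus it was 12.0, 83.5 and 82.2 in Akt-RACVECs, 24.5 to 63.97 in Akt-LECs and 79.3 to 116 in LSECs. Sox17-RACVEC 1 was thus below every library of these groups. Akt-liver ECs had 82.8, 1.49 and 5.61.

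Several libraries stood apart. Akt-MACs 1, 2 and 3 had 6 macrophage markers at a summed 809, 8412 and 27558 FPKM, against at most 14.7 in MACs, and 4 or 5 of the 6 were at 10 or above. Among the cultured ECs, Akt-LEC 1 and Akt-liver EC 1 had 6 mesenchymal markers at 2706 and 1397 FPKM, against at most 393 in the other cultured EC libraries, and 6 macrophage markers at 1409 and 967, against at most 18.6. Of these 6 macrophage markers, 4 and 5 reached 10 in the same pair of libraries. RACVECs held 2315 to 4915 FPKM of mesenchymal markers, which is in the range of MACs (1984 to 6162). LSECs held 10427 to 17087 FPKM of macrophage markers, 2115 to 11964 of hepatocyte markers and 10407 to 11045 of blood markers. The library labelled Sox17-RACVEC 2 had endothelial markers at 17868 FPKM, against 6134 and 5553 in the others of its group, sinusoidal markers at 1381, against 12.5 and 18.7, and stellate and smooth muscle markers at 6.9, against 938 and 2056. In bulk libraries a change in the number of cells of a type and a change of RNA per cell cannot be told apart.

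To show the promoter context of genes that rose with the Ets factors and of a gene that did not, the 300 bases around the annotated start (250 before and 50 after) of Adgrf5, Spns2 and S1pr2 are given from RefSeq on GRCm38.p6. The reads were mapped to mm9, so these windows are used for sequence only. Capitals mark GGAA or its complement TTCC, the core that Ets factors recognise. The window of Adgrf5 (first of 2 annotated starts) is on chr17:43360181-43360480, plus strand. That of Spns2 is on chr11:72474978-72475277, minus strand, and that of S1pr2 on chr9:20976744-20977043, minus strand.
Adgrf5: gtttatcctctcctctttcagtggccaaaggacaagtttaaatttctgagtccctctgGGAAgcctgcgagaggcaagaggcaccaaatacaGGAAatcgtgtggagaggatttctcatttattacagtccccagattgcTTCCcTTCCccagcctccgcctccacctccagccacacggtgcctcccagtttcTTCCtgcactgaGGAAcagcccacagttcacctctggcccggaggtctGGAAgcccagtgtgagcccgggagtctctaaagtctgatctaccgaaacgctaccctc
Spns2: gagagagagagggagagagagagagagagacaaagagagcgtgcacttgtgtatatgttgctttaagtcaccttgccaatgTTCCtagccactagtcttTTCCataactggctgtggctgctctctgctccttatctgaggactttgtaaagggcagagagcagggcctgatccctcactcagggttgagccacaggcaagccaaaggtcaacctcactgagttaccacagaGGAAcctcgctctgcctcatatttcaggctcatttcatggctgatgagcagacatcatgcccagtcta
S1pr2: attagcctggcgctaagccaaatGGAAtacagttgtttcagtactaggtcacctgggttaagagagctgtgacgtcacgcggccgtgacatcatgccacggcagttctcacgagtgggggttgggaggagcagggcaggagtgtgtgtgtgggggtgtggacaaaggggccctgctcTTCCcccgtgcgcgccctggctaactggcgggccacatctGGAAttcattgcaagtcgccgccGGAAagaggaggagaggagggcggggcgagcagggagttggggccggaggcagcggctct
On both strands, GGAA occurred 7 times in the Adgrf5 window, 3 times in that of Spns2 and 4 times in that of S1pr2. The second Adgrf5 window, not printed, held 5. Those of Sphk1, which was not called higher, held 3 to 7. Of 32851 promoters of this length, 96.0% held GGAA, with a median of 3 matches. The longer CCGGAA, which overlaps GGAA, was in 14.9% of promoters and in the S1pr2 window once. CAGGAAG (13.3% of promoters) and ACAGGAA (8.67%) were each once in the Adgrf5 window. No entry for S1pr1 or Adgra2 was in the table used, and 7 of the 9 genes had one.

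S1pr1 (chr3:115413351-115417973, minus strand, mm9) was low in amniotic cells and high in all ECs. Its FPKM was 39.1, 97.9 and 52.65 in MACs and 58.0, 62.6 and 68.8 in Akt-MACs. In RACVECs it was 542, 619 and 879.6, above every amniotic library, and the highest was RACVEC 3. The Akt-RACVECs were close to each other at 1539.96, 1516 and 1612, and the Sox17-RACVECs were at 909, 2274 and 1363. The Akt-LECs had 833, 1815 and 1798 FPKM. For Akt-liver ECs the values were 1064, 1522 and 1666. The first library of each, which held the mesenchymal and macrophage markers, was the lowest. LSECs were lower than every cultured EC library, at 409.6, 353 and 334. By mean, Akt-RACVECs were highest (1556), followed by Sox17-RACVECs (1515), then lung ECs with Akt (1482) and liver ECs with Akt (1418), RACVECs (680.3), LSECs (366), MACs (63.2) and Akt-MACs (63.1). Neighbours overlapped within the first 4 groups and between MACs and Akt-MACs, and did not overlap at the other 3 steps.

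S1pr2 (chr9:20770396-20781237, minus strand, mm9) took the opposite course. MACs had 119, 143 and 176 FPKM and Akt-MACs 135, 99.8 and 186. RACVECs lay below all of them at 73.1, 61.5 and 59.75. It was lower again in the Akt-RACVECs, at 27.5, 18.5 and 4.11, with no overlap with RACVECs. Sox17-RACVECs were spread over both ranges at 75.8, 11.2 and 64.97. Akt-LECs had 105, 3.02 and 20.8 FPKM, Akt-liver ECs 69.96, 26.9 and 16.6, and LSECs 23.7, 26.4 and 15.5. In both cultured EC groups the highest S1pr2 was in library 1, where 6 stellate and smooth muscle markers summed to 1909 and 1521 FPKM, against at most 203 in the others. The part of these cells in the S1pr2 values was not tested.

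S1pr3 (chr13:51503987-51518166, plus strand, mm9) differed most between libraries of the same group. It was 119.99, 945 and 837 FPKM in MACs, and 93.4, 15.6 and 5.29 in Akt-MACs, below all MACs. RACVECs had 533, 0.62 and 212, so that RACVEC 2 was close to 0 and the other pair was in the range of MACs. The Akt-RACVECs had 22.5, 11.25 and 0, and the Sox17-RACVECs were listed at 0 in all 3 libraries. Of the cultured ECs, Akt-LEC 1 had 184 and Akt-liver EC 1 had 49.1, and the other 4 libraries were between 0 and 0.59. LSECs had 1.17, 0.71 and 2.8. A value of 0 sets no limit of detection, as the number of fragments is not used here.

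**Figure D1:**
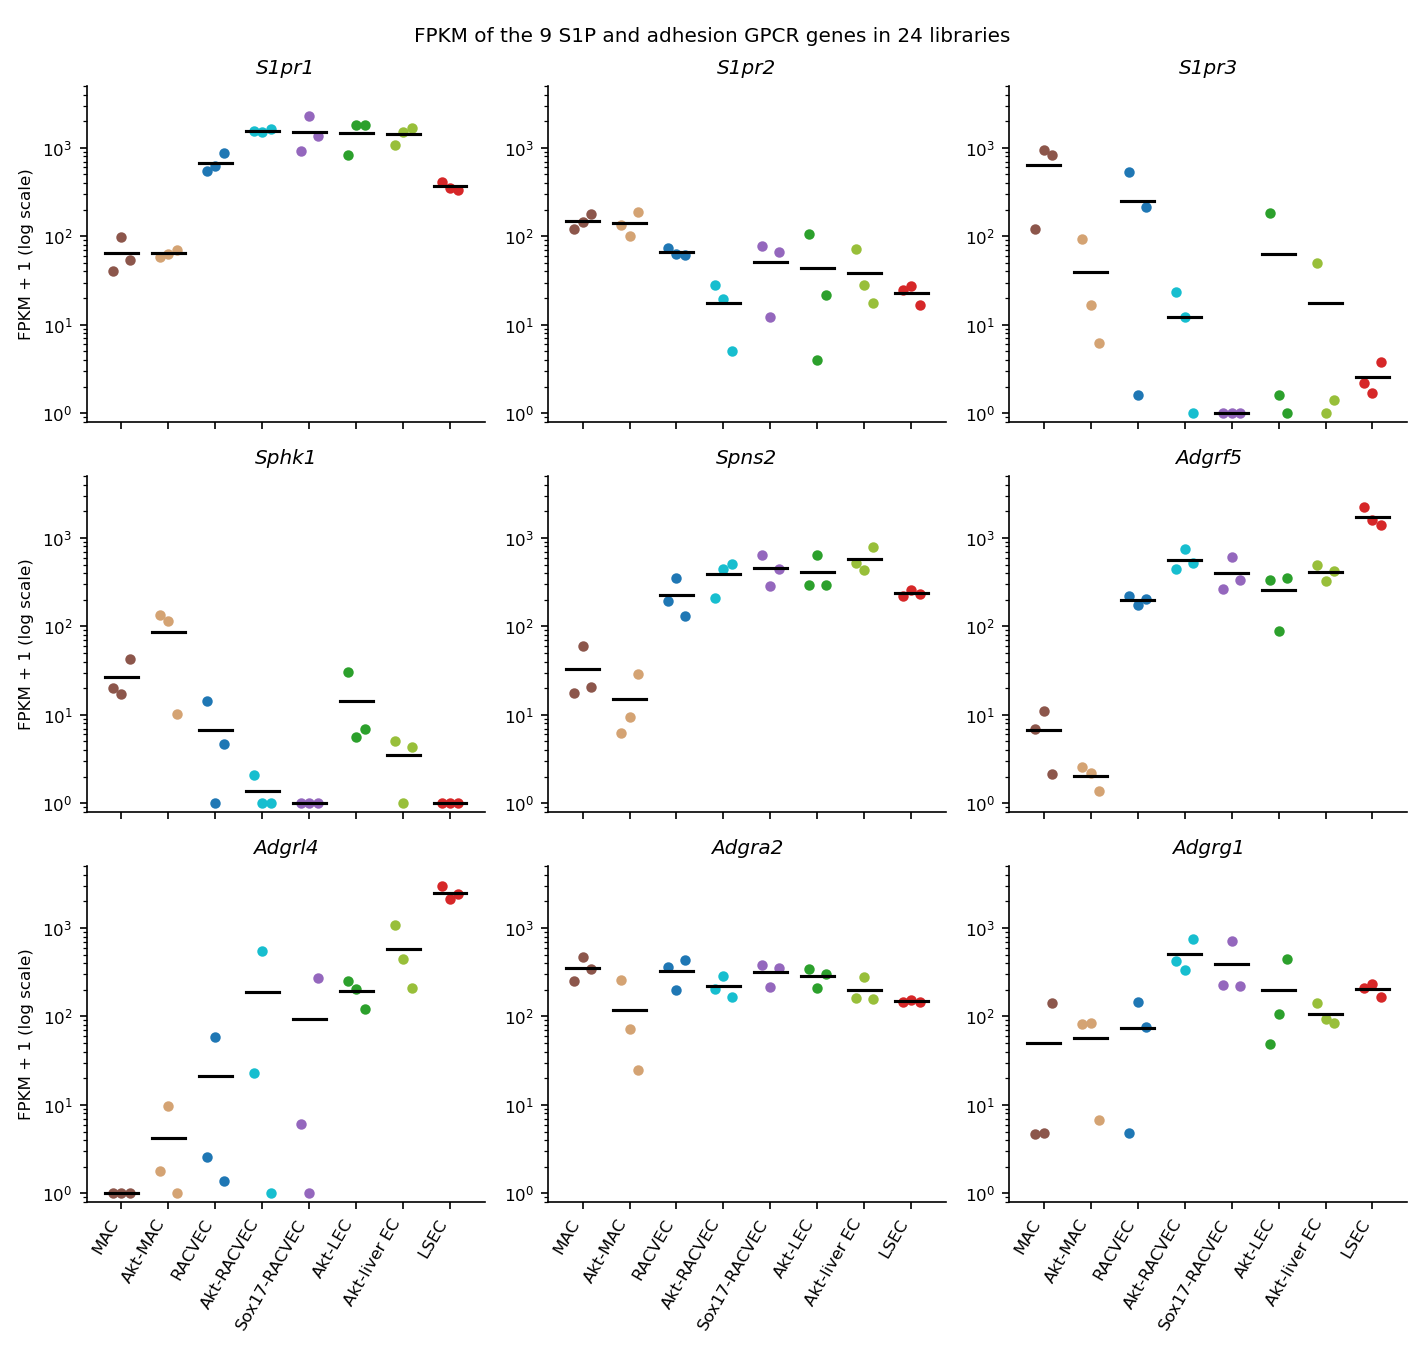
Each panel plots the FPKM + 1 (log axis) of 1 gene in the 24 libraries, as points in the order of replicate 1 to 3, with a bar at the mean of each of the 8 groups. S1pr1, Spns2 and Adgrf5 lie higher in every RACVEC, cultured EC and LSEC library than in every MAC or Akt-MAC library, and S1pr3 spreads from 0.62 to 533 within the RACVECs.

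The receptor balance moved accordingly from S1pr3 and S1pr2 to S1pr1. S1pr1 made up 14.04%, 8.26% and 4.94% of the summed FPKM of the 3 receptors in MACs. S1pr3 had the largest share there, at 43.1%, 79.7% and 78.5%, but S1pr2 was nearly level in MAC 1 at 42.9%. In Akt-MACs the share of S1pr1 was 20.25%, 35.2% and 26.4%, and S1pr2 was the largest at 47.1%, 56.1% and 71.6%. In RACVECs the share of S1pr1 was 47.2%, 90.9% and 76.4%, with the lowest share in RACVEC 1, which had 533 FPKM of S1pr3. All Akt-RACVECs were at 96.85% or above and all Sox17-RACVECs at 92.3% or above. The mean share rose from 9.08% ± 4.60 (SD, n = 3) in MACs to 71.5% ± 22.2 (SD, n = 3) in RACVECs, a difference of 62.4 percentage points (p = 0.1 by an exact permutation of the libraries, two-sided, and no smaller p is possible with 3 against 3). Akt-RACVECs were 26.7 points above RACVECs and Sox17-RACVECs 24.3 points, each with every library above every RACVEC (exact permutation p = 0.1). Akt-LEC 1, at 74.2%, was below the range of 89.9% to 99.8% of the other cultured EC libraries. Akt-liver ECs, at 95.7% ± 5.03 (SD, n = 3), and LSECs, at 94.0% ± 1.00 (SD, n = 3), differed by 1.75 points (exact permutation p = 0.6). S1pr4, a receptor of blood cells, was 36.4 to 45.3 FPKM in LSECs, where blood markers were also high. With S1pr4 and S1pr5 in the sum, the last difference was 10.3 points.

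**Figure D2:**
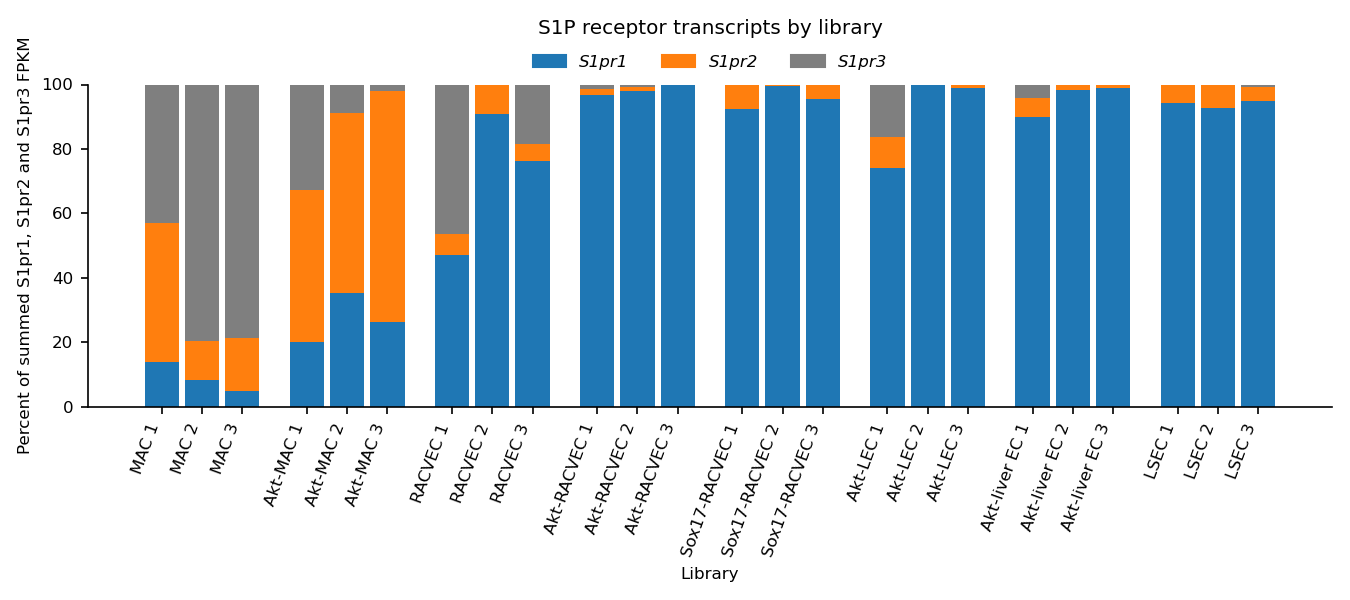
Stacked bars give, for each of the 24 libraries, the percent of the summed S1pr1, S1pr2 and S1pr3 FPKM that belongs to each receptor. S1pr1 is the smaller part in the 6 amniotic libraries, at most 35.2%, and makes up 74.2% or more in each Akt-RACVEC, Sox17-RACVEC, cultured EC and LSEC library, with RACVEC 1 at 47.2% between them.

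Of the genes that make and release S1P, Sphk1 (chr11:116392239-116397988, plus strand, mm9) was highest in amniotic cells by group mean. It was 18.9, 16.3 and 42.0 FPKM in MACs and 132, 115 and 9.23 in Akt-MACs. RACVECs had 13.25, 0 and 3.71, below every MAC library, and Akt-RACVECs had 1.11, 0 and 0. Sphk1 was listed at 0 in all Sox17-RACVECs and LSECs. Akt-LECs had 29.3, 4.58 and 5.89 and Akt-liver ECs 4.11, 0 and 3.3. Sphk1 was the sum of 4 transcripts, the largest of which held 42.1%, and thus depends on how reads were shared among them. Sphk2, the other kinase, differed little in level and was between 51.3 (LSECs) and 98.3 (Akt-MACs) FPKM by group mean.

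Spns2 (chr11:72265140-72303463, minus strand, mm9) ran with S1pr1 by group mean, but not in every group by library. In RACVECs, Sox17-RACVECs and LSECs the library with the highest S1pr1 had the lowest Spns2. In MACs, Akt-MACs, Akt-RACVECs, Akt-LECs and Akt-liver ECs that library had the highest Spns2. The FPKM of Spns2 was 16.5, 59.6 and 19.7 in MACs and 5.23, 8.43 and 28.05 in Akt-MACs. RACVECs were all higher, at 192, 347 and 129.56. It was 206, 448 and 502 in Akt-RACVECs, 632, 285 and 443 in Sox17-RACVECs and 296, 632 and 289 in Akt-LECs. Akt-liver ECs had 523, 427 and 787, above all LSECs (221, 256 and 231). Over the 8 group means, log2(FPKM + 1) of S1pr1 and Spns2 had a Pearson r of 0.965, whereas S1pr1 and S1pr2 had -0.754. These correlations describe 8 means that share the same libraries, and all carry the step from amniotic cells to ECs.

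Adgrf5 (chr17:43526415-43596506, plus strand, mm9) had the widest step from RACVECs to MACs among the 8 genes with no group at 0 in that comparison. It was 5.95, 10.15 and 1.13 FPKM in MACs and 1.59, 1.18 and 0.36 in Akt-MACs. RACVECs were close together at 218, 174 and 204. Akt-RACVECs, at 443, 746 and 518, were all above RACVECs. Sox17-RACVECs had 261, 611 and 331, likewise above all RACVECs. Akt-LECs had 333, 87.85 and 348, with Akt-LEC 2 under the RACVECs, and Akt-liver ECs 493, 325 and 423. Adgrf5 was highest in LSECs, at 2225, 1575 and 1395, above every other library.

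Adgrl4 (chr3:151100851-151208050, plus strand, mm9) was listed at 0 in all MACs, and at 0.78, 8.74 and 0 in Akt-MACs. In the converted cells it was carried by single libraries. RACVEC 2 had 58.25 FPKM and the others 1.59 and 0.37, Akt-RACVEC 2 had 547 and the others 22.1 and 0, and Sox17-RACVEC 3 had 269.89 and the others 5.05 and 0. All tissue-derived ECs had the transcript, with 251, 205 and 119 in Akt-LECs, then 1076, 449.7 and 211 in Akt-liver ECs and 2983, 2104 and 2409.99 in LSECs.

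Adgra2 (chr8:28196313-28233890, plus strand, mm9) was high in amniotic cells and ECs alike. MACs had 249, 464 and 344 FPKM, RACVECs 358, 201 and 428, and LSECs 146, 154 and 144. The low values were those of Akt-MAC 2 and Akt-MAC 3, at 71.6 and 24.1, while Akt-MAC 1 was at 258. The same pair had the highest macrophage marker sums outside LSECs, and the part of this in the Adgra2 level was not tested.

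Adgrg1 (chr8:97508503-97538090, plus strand, mm9) was uneven in amniotic cells, with 3.63, 3.83 and 140.1 FPKM in MACs and 80.7, 83.3 and 5.77 in Akt-MACs. RACVECs were likewise spread over 3.86, 143 and 75.0. In Akt-RACVECs (426, 336.5 and 751) and Sox17-RACVECs (227, 714 and 218) every library was above every RACVEC. Akt-LECs had 47.3, 106 and 445, Akt-liver ECs 141, 92.2 and 82.8, and LSECs 207, 234 and 165. By mean, Akt-RACVECs (505) were the highest group, overlapping Sox17-RACVECs (386).

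To find which of these differences exceeded the spread between libraries, groups were compared with limma in 1 fit over all genes and all 24 libraries. Each gene has 1 spread shared by the 8 groups. Its standard errors and intervals are therefore not those of the compared groups alone. Calls required both an adjusted p (Benjamini-Hochberg) under 0.05 and a difference of over 1 in log2(FPKM + 1) in either direction. This scale understates the change of low genes. In RACVECs against MACs, which differ in the Ets factors and in medium, S1pr1, Spns2 and Adgrf5 rose. The log2 fold change was 3.48 (standard error 0.35, adjusted p = 1.49e-05) for S1pr1, 2.88 (standard error 0.56, adjusted p = 0.00682) for Spns2 and 5.18 (standard error 0.53, adjusted p = 1.58e-05) for Adgrf5. The 3 higher genes of 9 stand beside 1.36% of the 14964 genes tested that were called higher. No member was called lower, with 1.35% of all genes called lower and 2.71% in either direction. The libraries of the groups were apart for 6 members, as for 22% of all genes. Past the fold at an unadjusted p below 0.05 were 4 members, beside 1885 of the 14964 genes tested. These were the 3 called and Sphk1, at -2.60 (95% interval -4.63 to -0.57, adjusted p = 0.149). S1pr2 had -1.15 (-3.03 to 0.73), S1pr3 -3.01 (-7.39 to 1.37), Adgrg1 1.36 (-1.36 to 4.08) and Adgra2 -0.12 (-1.28 to 1.03), intervals that all include 0. By the criterion of the study, S1pr2 was lower (-1.16, unadjusted p = 0.0321) and Spns2 was not called (2.77, unadjusted p = 0.0924). Without RACVEC 3, S1pr1 (3.28), Spns2 (3.21) and Adgrf5 (5.16) were called. Adgrl4 was at 0 in all MACs and is given no fold. The calls were lost when only RACVECs and MACs were fitted, with adjusted p of 0.0691 for S1pr1, 0.0874 for Adgrf5 and 0.168 for Spns2, and Spns2 was lost without RACVEC 2 (adjusted p = 0.0543). In the pairs of libraries whose file headers share a name, RACVEC 1 with MAC 2 and RACVEC 2 with MAC 3, S1pr1 was 2.46 and 3.53 higher, Spns2 1.67 and 4.07 and Adgrf5 4.29 and 6.36 in log2 units. Adgrg1 differed by 0.01 and 0.03 in these pairs.

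Akt-RACVECs and Akt-MACs differ in the Ets factors with Akt in both, and 6 members were called. The groups differ also in macrophage markers, which summed to 809 to 27558 FPKM in Akt-MACs and at most 146 in Akt-RACVECs. The medium of Akt-MACs is not given here. S1pr1 rose by 4.60 (standard error 0.35, adjusted p = 9.07e-08), Spns2 by 4.91 (standard error 0.56, adjusted p = 1.75e-05), Adgrf5 by 8.14 (standard error 0.53, adjusted p = 2.74e-08) and Adgrg1 by 3.73 (standard error 1.30, adjusted p = 0.0441) in log2 units. S1pr2 fell by 3.27 (standard error 0.90, adjusted p = 0.0143) and Sphk1 by 5.40 (standard error 0.97, adjusted p = 0.00109). Among all genes tested, 6.15% were called higher and 13.4% lower (19.5% in all). The libraries were apart for the same 6 members, and for 37.4% of all genes. S1pr3 and Adgrl4 did not pass the test at -1.70 (-6.08 to 2.68) and 3.17 (-0.85 to 7.19), and Adgra2 was at 1.46 (adjusted p = 0.0622), which became 1.58 (adjusted p = 0.0402) after scaling by median ratio. When only these groups were fitted, S1pr2 (adjusted p = 0.0578), Sphk1 (0.0536) and Adgrg1 (0.0994) lost their calls. By the criterion of the study Sphk1 (unadjusted p = 0.157), Spns2 (0.0544) and Adgrg1 (0.0655) lost theirs. The call of Adgrg1 was lost in 5 of the 6 fits that leave out 1 library, with adjusted p up to 0.199. Without Akt-RACVEC 3, S1pr2 lost its call (-2.54, adjusted p = 0.0672) and Adgrl4 gained one (5.44, adjusted p = 0.0451), and without Akt-MAC 1 Adgra2 gained one (2.32, adjusted p = 0.00127). With Akt-MACs 2 and 3 left out, S1pr1, Spns2, Adgrf5 and Sphk1 stayed past the threshold at 4.72, 5.85, 7.75 and -6.70, whereas Adgrg1 was at 2.54 (adjusted p = 0.436), S1pr2 at -3.26 (adjusted p = 0.17) and Adgra2 at -0.28. Akt-MAC 1 is then alone and is assumed to vary like the other groups.

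Akt-LECs against Akt-MACs, the reference for ECs of a tissue, also had 6 members called. S1pr1 was higher by 4.45 (adjusted p = 1.75e-07), Spns2 by 4.99 (adjusted p = 1.97e-05), Adgrf5 by 6.79 (adjusted p = 1.64e-07), Adgrl4 by 6.15 (adjusted p = 0.0311) and Adgra2 by 1.84 (adjusted p = 0.0261). S1pr2 was lower by limma at -2.70 (adjusted p = 0.0406). Of all genes, 5.76% were called higher and 10.5% lower (16.3% in all). For 4 members and 34.2% of all genes the groups did not overlap. Fitting only these groups lost S1pr2 (adjusted p = 0.219) and Adgra2 (0.236), and by the criterion of the study only S1pr1 and Adgrl4 were called. Leaving out 1 library at a time lost the call of Adgrl4 and that of S1pr2 in 5 of 6 fits (adjusted p up to 0.0925 and 0.212) and that of Adgra2 in 4 of 6 (up to 0.135), whereas S1pr1, Spns2 and Adgrf5 kept theirs. Sphk1 (-2.36, adjusted p = 0.091) gained a call without Akt-MAC 3 (-3.56, adjusted p = 0.0138) or without Akt-LEC 1 (-3.12, adjusted p = 0.0452). Without Akt-MACs 2 and 3 the Adgra2 difference was 0.10, and S1pr2 and Adgrl4 were no longer called (adjusted p = 0.276 and 0.195). Without Akt-LEC 1 and Akt-liver EC 1, S1pr2 was at -3.87 and Sphk1 at -3.12, both called, while Adgrl4 and Adgra2 were not (adjusted p = 0.0774 and 0.0795). Both comparisons share the Akt-MACs, and their values are therefore only set side by side.

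**Figure D3:**
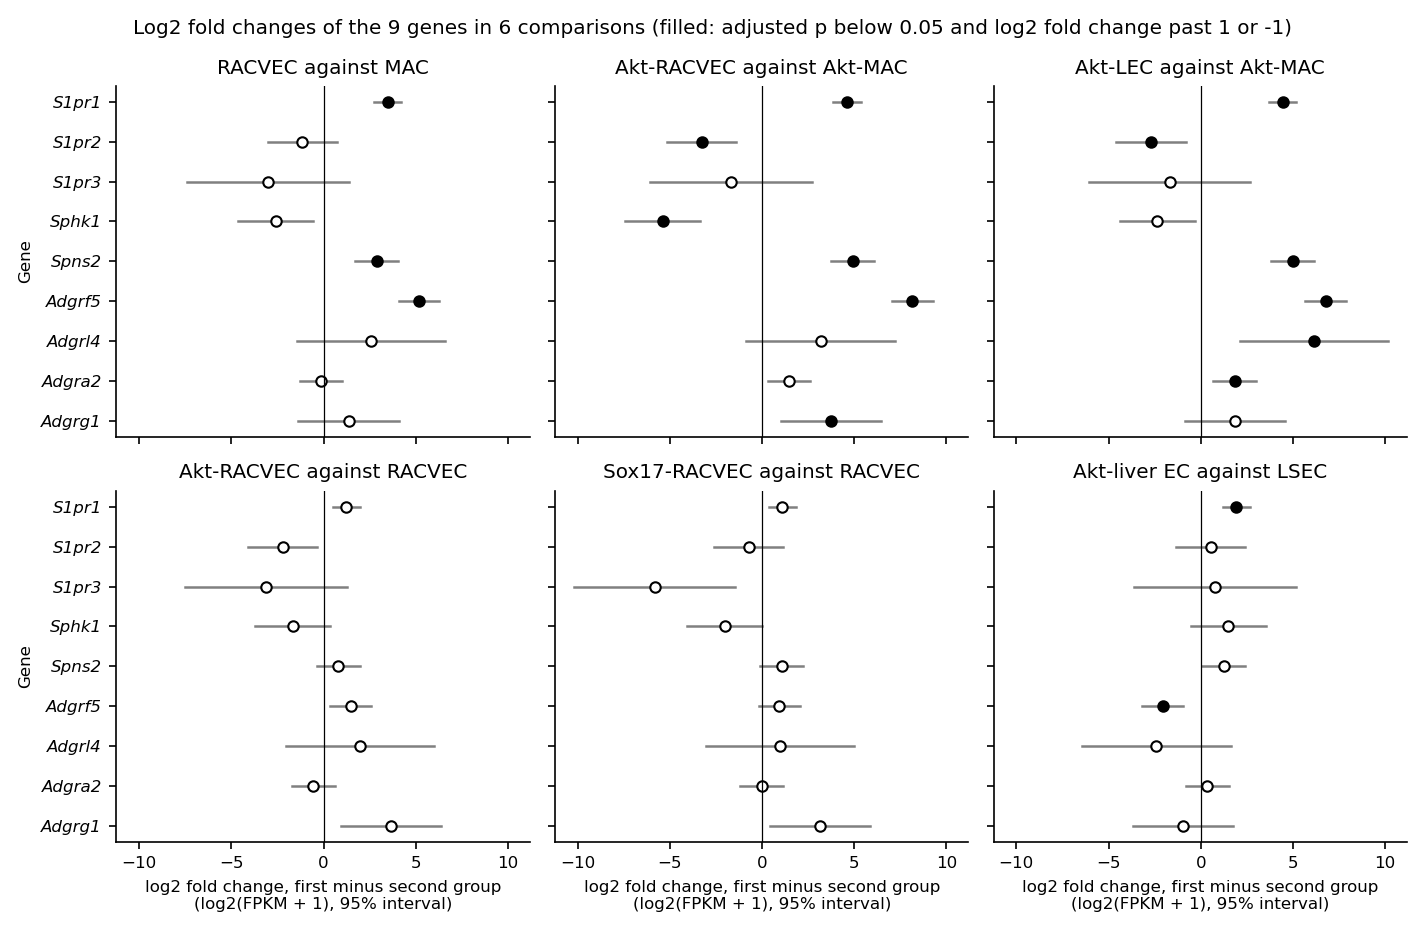
Points give the log2 fold change (first minus second group, log2(FPKM + 1)) of each of the 9 genes in 6 comparisons, with 95% intervals from limma as lines, and filled points are called. S1pr1, Spns2 and Adgrf5 are filled and to the right in the 3 comparisons with amniotic cells, no point is filled where Akt-RACVECs or Sox17-RACVECs are set against RACVECs, and points of genes listed at 0 in a whole group depend on the added 1.

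Akt in RACVECs was the next comparison. No member was called in Akt-RACVECs against RACVECs, where 0.261% of all genes were called, 0.221% higher and 0.0401% lower. Past the fold at an unadjusted p below 0.05 were 4 members, beside 1501 of the 14964 genes tested. S1pr1 was 1.22 higher in log2 units (95% interval 0.49 to 1.96, adjusted p = 0.106), Adgrf5 1.49 (0.37 to 2.60, adjusted p = 0.181) and Adgrg1 3.66 (0.95 to 6.38, adjusted p = 0.176), and S1pr2 was at -2.21 (-4.09 to -0.33, adjusted p = 0.233). For each of these 4 genes the 3 Akt-RACVECs lay on 1 side of the 3 RACVECs, as 19.8% of all genes did. Spns2 (0.80, -0.37 to 1.97) and Adgra2 (-0.56, -1.71 to 0.60) overlapped between the groups. By the criterion of the study, a log2 ratio of averaged FPKM past 1 with an unadjusted p below 0.05, S1pr1 and S1pr2 differed. Endothelial markers summed to at most 4479 in RACVECs and at least 13784 in Akt-RACVECs, and mesenchymal markers to at least 2315 and at most 115, so that the whole libraries moved with these genes. The part of that in the 4 genes was not tested.

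Between Akt-MACs and MACs, S1pr1 had a log2 difference of 0.10 (95% interval -0.64 to 0.84), which was -0.04 after scaling by median ratio. Only Adgra2 was called, lower at -2.14 (standard error 0.55, adjusted p = 0.0423), where 0.214% of all genes were called lower and 2.59% higher (2.81% in all). The libraries were apart for 1 member, S1pr3, and for 14.9% of all genes. Without Akt-MACs 2 and 3 the Adgra2 difference was -0.40, and 5 of the 6 fits that leave out 1 library lost the call. S1pr3, at -4.42 (-8.80 to -0.04), Spns2, at -1.23 (-2.40 to -0.06), and Adgrf5, at -1.48 (-2.59 to -0.36), were past the fold at an unadjusted p below 0.05 with adjusted p of 0.354, 0.327 and 0.173, and Adgrf5 was called without MAC 3 (-2.16, adjusted p = 0.0193). With Adgra2 this was 4 members at that unadjusted threshold, beside 1455 of the 14964 genes tested. With Akt-MAC 1 as the only Akt-MAC, the values were -2.28 for S1pr3, -2.17 for Spns2 and -1.08 for Adgrf5, and none was called. The Akt effect in RACVECs minus that in MACs was tested as an interaction, with 0.1% of all genes called, 0.00668% higher and 0.0936% lower. No member was called. Past the fold at an unadjusted p below 0.05 were 3 members, beside 1516 of the 14964 genes tested. The 3 members were Adgrf5 (2.96, 1.39 to 4.53, adjusted p = 0.114), Spns2 (2.03, 0.38 to 3.69, adjusted p = 0.291) and S1pr1 (1.12, 0.08 to 2.16, adjusted p = 0.37). These were at 2.57 (adjusted p = 0.533), 2.97 (0.306) and 1.24 (0.806) without Akt-MACs 2 and 3. Without Akt-MAC 1 the interaction of Adgrf5 and that of Adgra2 were called at 3.16 and 2.45, and without MAC 3 that of Adgrf5 at 3.64.

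Sox17-RACVECs against RACVECs had 0 members called by limma, where 0.00668% of all genes were called. For 4 members and 10.6% of all genes the groups did not overlap. An unadjusted p below 0.05 past the fold was found for S1pr1 (1.08, 95% interval 0.35 to 1.82, adjusted p = 0.51), Adgrg1 (3.13, 0.41 to 5.85, adjusted p = 0.67) and S1pr3, which is listed at 0 in the Sox17-RACVECs. These 3 members stand beside 704 of the 14964 genes tested. Spns2 (1.06, -0.10 to 2.23) and Adgrf5 (0.92, -0.19 to 2.03) were not called, and Adgra2 differed by -0.02 (-1.18 to 1.13), or by 0.06 after scaling. Without the library labelled Sox17-RACVEC 2, in which Etv2 is at 0 and S1pr1 highest, S1pr1 was at 0.74, Adgrg1 at 2.57, Adgrf5 at 0.57 and Spns2 at 1.36, while S1pr2 and Adgra2 turned to 0.12 and 0.23. Mesenchymal markers summed to at least 2315 in RACVECs and at most 351 in Sox17-RACVECs, and endothelial markers to at most 4479 and at least 5553, and their part in these values was not tested.

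The converted cells were then set against ECs of a tissue. Akt-RACVECs against Akt-LECs had 0 members called, beside 0.00668% of all genes. Beside 623 of the 14964 genes tested, 2 members were past the fold at an unadjusted p below 0.05. In these 2 members the libraries were apart, as in 11.9% of all genes. They were Sphk1 (-3.04, 95% interval -5.07 to -1.01, adjusted p = 0.325) and Adgrf5 (1.35, 0.24 to 2.46, adjusted p = 0.446). The interval of S1pr1 was -0.58 to 0.89 and that of Spns2 -1.24 to 1.10, whereas that of Adgrl4, -7.00 to 1.04, was wider. RACVECs against Akt-LECs had 0 members called by limma, beside 0.261% of all genes, 0.0267% higher and 0.234% lower. The libraries were apart for 1 member, Adgrl4, and for 15.2% of all genes. Past the fold at an unadjusted p below 0.05 were 2 members and 1165 of the 14964 genes tested. S1pr1 was at -1.07 (-1.80 to -0.33, adjusted p = 0.222) and Adgrl4 at -4.95 (-8.97 to -0.93, adjusted p = 0.315). Without Akt-LEC 1 and Akt-liver EC 1 they were at -1.44 (adjusted p = 0.0605) and -4.73 (adjusted p = 0.385). In Akt-RACVECs against Akt-LECs, Sphk1 was then at -2.27 and Adgrf5 at 1.66. Akt-LECs and Akt-liver ECs had 0 members called, beside 0.0134% of all genes. Past the fold at an unadjusted p below 0.05 were 0 members, beside 417 of the 14964 genes tested. The libraries were apart for 1 member, Sphk1, and for 7.16% of all genes. S1pr1 differed by 0.00 between them (-0.73 to 0.74).

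Cultured liver ECs differed from those sorted directly. In log2 units S1pr1 was 1.93 higher after culture with Akt (standard error 0.35, adjusted p = 0.000369), and Adgrf5 was lower, at -2.06 (standard error 0.53, adjusted p = 0.00583). This is 1 member of 9 in each direction beside 14.1% of all genes called higher and 12.9% lower (27% in all). Groups did not overlap for 6 members and for 52.6% of all genes. Without Akt-liver EC 1 the values were 2.13 for S1pr1 and -2.19 for Adgrf5, and both were called in each setting tried. Spns2 was at 1.25 (95% interval 0.08 to 2.42, adjusted p = 0.0919) and Adgrl4 at -2.40 (-6.42 to 1.62, adjusted p = 0.359). Both of these were called when only these groups were fitted, and Adgrl4 also by the criterion of the study. Culture, Akt and the hepatocyte, macrophage and blood RNA of LSECs go together in this comparison and cannot be told apart.

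**Figure D4:**
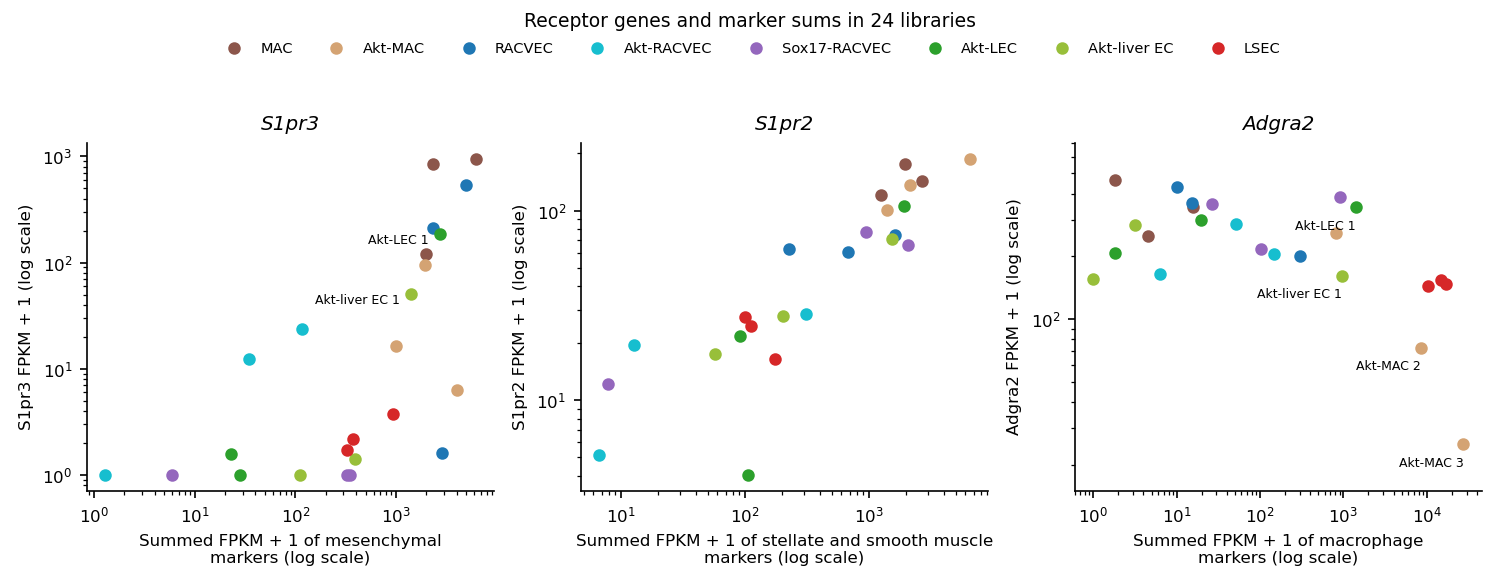
Each point is 1 of 24 libraries, with the FPKM + 1 of S1pr3, S1pr2 or Adgra2 on the vertical log axis and the summed FPKM + 1 of mesenchymal, stellate and smooth muscle, or macrophage markers on the horizontal log axis. Akt-LEC 1 and Akt-liver EC 1 have 184 and 49.1 FPKM of S1pr3 at mesenchymal sums of 2706 and 1397, S1pr2 is at 59.75 or higher in each library with a stellate and smooth muscle sum of 675 or more, and Akt-MACs 2 and 3 have the lowest Adgra2. The 3 pairs of axes were chosen after their values were seen.

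Of 20 genes of S1P metabolism and carriers, 19 were tested and 1 was called in RACVECs against MACs, beside 2.71% of all genes. It was Sptlc2, a subunit of the enzyme that begins sphingolipid synthesis, higher by 1.05 (adjusted p = 0.0194). The median of the 19 was 0.08, beside 0 over all genes. In Akt-RACVECs against Akt-MACs, 3 were higher and 2 lower, beside 6.15% and 13.4% of all genes, with a median of 0 beside -0.09. The ceramidases Acer2 and Asah2, which release sphingosine, rose by 5.19 (adjusted p = 0.00383) and 3.18 (adjusted p = 0.000533), and the lipid phosphatase Plpp2 rose by 1.94. The S1P lyase Sgpl1 fell by 2.48 (adjusted p = 0.00426) and the S1P phosphatase Sgpp1 fell by 3.52 (adjusted p = 0.0104). In Akt-LECs against Akt-MACs, Acer2, Asah2 and Plpp1 were higher by 4.91, 1.99 and 1.94 (adjusted p = 0.00692, 0.0132 and 0.009) and Sgpl1 was lower at -2.58 (adjusted p = 0.00458). This is 3 higher and 1 lower, beside 5.76% and 10.5% of all genes. In Akt-liver ECs against LSECs, 1 was higher and 6 lower, beside 14.1% and 12.9% of all genes, with a median of -0.48 beside 0.08. Plpp2 was higher by 4.46, and the largest falls were Sgpp1 (-4.17), the S1P carrier Apom (-4.04) and Plpp3 (-3.30). Apom is made by hepatocytes, whose markers were high in LSECs.

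Of 20 further genes of S1P receptor signalling, all tested, 0 were called in RACVECs against MACs, beside 2.71% of all genes. Past the fold at an unadjusted p below 0.05 were 0 of them, beside 1885 of all 14964 genes tested. In Akt-RACVECs against Akt-MACs, 0 were higher and 3 lower, near the 13.4% of all genes called lower, with a median of -0.16 beside -0.09. These were Arrb2, a β-arrestin (-2.67, adjusted p = 0.0103), Arhgef11, an exchange factor downstream of G12/13 (-1.10, adjusted p = 0.0176), and S1pr5, which was listed at 0 in all libraries but Akt-MACs 2 and 3 (2.73 and 40.9 FPKM). Arrb2 was also lower in Akt-LECs than in Akt-MACs (-2.14) and higher in Akt-MACs than in MACs (2.80, adjusted p = 0.0323). Without Akt-MACs 2 and 3, Arrb2 was at -0.52 in Akt-RACVECs and at 0.01 in Akt-LECs against Akt-MACs and at 0.65 in Akt-MACs against MACs, none of them called. In Akt-liver ECs against LSECs, the kinase Rock2 was higher by 2.29 (adjusted p = 1.42e-05) and Tiam1, an activator of Rac, and Arrb2 were lower at -4.25 and -3.52 (adjusted p = 0.000968 and 0.000703). This is 1 higher and 2 lower, beside 14.1% and 12.9% of all genes. Of the 7 genes of the related lipid lysophosphatidic acid, 6 were tested, and the receptor Lpar6 rose by 1.92 in Akt-RACVECs against Akt-MACs (adjusted p = 0.0346), while Lpar5 was called lower and is listed at 0 in Akt-RACVECs. Lpar2 was higher (2.99) and Lpar6 lower (-2.64) in Akt-liver ECs than in LSECs. Both comparisons thus had 1 of these genes called in each direction. Of all genes, 6.15% were called higher and 13.4% lower in the former, and 14.1% and 12.9% in the latter.

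Of 26 other adhesion GPCRs, 16 were tested, and 0 were higher and 2 lower in RACVECs than in MACs, beside 1.36% and 1.35% of all genes. Adgrl1, a latrophilin, fell by 2.79 (adjusted p = 0.0146) and Adgrb2 fell by 2.55 (adjusted p = 0.0388), and the median of the 16 was -0.76 beside 0 over all genes. In Akt-RACVECs against Akt-MACs, 2 were higher and 3 lower, beside 6.15% and 13.4%. Adgrg3 rose by 6.71 (adjusted p = 0.000554) and Adgrl2, another latrophilin, rose by 2.23 (adjusted p = 0.0321), and the macrophage receptor Adgre1 fell by 8.69, Adgrb2 by 4.84 and Celsr2 by 3.67. In Akt-LECs the same 3 were called lower, at -7.82, -4.60 and -3.18, beside 10.5% of all genes. Adgre1 was 56.6, 1648 and 4105 FPKM in Akt-MACs and 0 in MACs and RACVECs. Adgrg3 was also 7.93 higher in Akt-LECs than in Akt-MACs (adjusted p = 0.000177) and was lower in RACVECs than in Akt-LECs at -6.16 (adjusted p = 0.0186). It was 6.83, 2.18 and 1.58 FPKM in RACVECs, 88.3, 196 and 103 in Akt-RACVECs and 715 to 877 in LSECs. In Akt-liver ECs against LSECs, 1 was higher and 4 lower, beside 14.1% and 12.9%, with Celsr1 at 5.06 and Adgre1, Adgre4 and Adgrg6 at -7.61, -7.42 and -3.82. Of 10 partners of the adhesion GPCRs, 8 were tested, and Fzd4, a Wnt receptor that acts with Adgra2, rose by 3.83 in Akt-RACVECs against Akt-MACs (adjusted p = 0.00254) and by 3.48 in Akt-LECs (adjusted p = 0.00616). Tgm2, a ligand of Adgrg1, was lower in RACVECs than in Akt-LECs at -5.25 (adjusted p = 0.0486). The Wnt co-receptor Lrp5 rose by 1.63 in Akt-RACVECs against Akt-MACs (adjusted p = 0.0264), and Reck (2.05) and Wnt7b (listed at 0 in LSECs) were called higher in the comparison of Akt-liver ECs with LSECs. Of all genes, 6.15% were called higher in Akt-RACVECs and 5.76% in Akt-LECs against Akt-MACs. In Akt-liver ECs against LSECs 14.1% were called higher, and in RACVECs against Akt-LECs 0.234% were called lower. Without Akt-MACs 2 and 3, 5 of the 17 list genes called in Akt-RACVECs against Akt-MACs stayed called, which were Asah2 (3.52), Adgrg3 (6.93), Fzd4 (5.21), Adgrb2 (-3.80) and Celsr2 (-4.70). Acer2 (5.76, adjusted p = 0.0524), Sgpl1 (-2.11, 0.136) and Sgpp1 (-2.83, 0.239) were among those lost. Of 11 in Akt-LECs against Akt-MACs, Adgrg3 (8.16), Fzd4 (4.85) and Adgrb2 (-3.55) stayed called. Without Akt-LEC 1 and Akt-liver EC 1, 9 of these 11 stayed called, as did the 15 named in Akt-liver ECs against LSECs and 2 of 2 in RACVECs against Akt-LECs. No gene of these 5 lists was called by limma in Akt-RACVECs or Sox17-RACVECs against RACVECs, in Akt-RACVECs against Akt-LECs, between Akt-LECs and Akt-liver ECs or in the interaction, with 0 to 4 genes per list past the fold at an unadjusted p below 0.05. Of all 14964 genes tested, 417 to 1516 were past it in these comparisons.

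The genes most like each member were found by Pearson r of log2(mean FPKM + 1) over the 8 group means, among the 11699 genes whose mean reached 10 FPKM. For S1pr1 these were Ebna1bp2 (0.994) and Rbm27 (0.989), for Spns2 Dock9 (0.993) and Vsig10 (0.989), and for S1pr2 Myl9 (0.986), a myosin light chain of smooth muscle, and Zic2 (0.975). Adgrf5 was most like Arhgef15 (0.989) and Prkd3 (0.987), and Adgrl4 most like Tmem51 (0.990) and Gng11 (0.983). For S1pr3 they were Cpxm1 (0.967) and Rasl11a (0.966), for Sphk1 Crispld2 (0.983) and Garem1 (0.967), for Adgra2 Tbx4 (0.976) and Polr1c (0.932), and for Adgrg1 Tmem44 (0.964). The ranges of the likest genes differ, since Ebna1bp2 ran from 76.6 FPKM in MACs to 140 in Akt-liver ECs, whereas Arhgef15 ran from 0.403 in Akt-MACs to 424 in LSECs.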

How the data were processed

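RNA sequencing of 24 libraries was used. The authors sequenced paired reads of 51 bp, mapped them with TopHat to mm9 and deposited Cufflinks FPKM, normalized to the upper quartile and corrected for sequence bias, for 27583 RefSeq transcripts. Versions and annotation are not given in the sources used here. Fragment numbers are not used here, so the depth is unknown, and precision is that between libraries. In the main fit the spread of a gene was estimated over all 8 groups together. Summed FPKM per library was 1689486 to 2317294.

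Symbols were joined to 26934 transcripts and 649 were kept apart, which gave 22282 genes. The 14964 genes whose mean reached 1 FPKM entered 1 model of log2(FPKM + 1) in limma (version 3.58.1, R 4.3.3), with a variance trend and Benjamini-Hochberg adjustment in place of the study's unadjusted criterion, which was run as an alternative. The script was checked on simulated data. Shares were compared by exact permutation tests in Python 3.11.15. Positions are from GENCODE M1 on NCBIM37 (mm9). Other settings were pseudocounts of 0.1 and 10, no filter or a mean FPKM of 10, median scaling, the largest transcript, only the groups compared, a replicate block and each library left out. Leaving out Akt-LEC 1 with Akt-liver EC 1, or Akt-MACs 2 with 3, was chosen after seeing the data.

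Genes named were the 9 members, up to 3 called genes per list and direction, and the 2 genes most like each member, 1 of which is not reported here. The members and lists were chosen with earlier results of these data known. Of the lists, Adgrg4, Cd68 and Hbb-b1 were not analysed here.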

Additional observations from a re-analysis of the deposited data

How the results depend on the processing

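Of 18 called member results, 2 (S1pr1 and Adgrf5 in Akt-liver ECs against LSECs) were called under every other setting and 11 when each library was left out, and the cause of the changes was not tested. When only the groups compared were fitted, members called were 0 in RACVECs against MACs (3 before), 3 in Akt-RACVECs (6) and 4 in Akt-LECs (6) against Akt-MACs, 0 in Akt-MACs against MACs (1) and 4 in Akt-liver ECs against LSECs (2). The criterion of the study gave 3 in RACVECs against MACs, with S1pr2 in place of Spns2. It gave 3 in Akt-RACVECs and 2 in Akt-LECs against Akt-MACs, and 2 in Akt-RACVECs against RACVECs. In RACVECs against Akt-LECs it gave 1, and in Akt-MACs against MACs 0. In Akt-liver ECs against LSECs it called S1pr1, Adgrf5 and Adgrl4. Without Akt-MACs 2 and 3 there were 3 in Akt-LECs against Akt-MACs and 0 in Akt-MACs against MACs. With the replicate number as a block, 0 were called in RACVECs against MACs, in Akt-RACVECs and Akt-LECs against Akt-MACs and in Akt-MACs against MACs, while S1pr1 (adjusted p = 0.0276) and Adgrf5 (adjusted p = 0.02) kept their calls in Akt-liver ECs against LSECs. Same-number libraries had correlations of -0.2 to 0.571, and in no comparison were all 3 over 0.1. The highest was 0.571, for number 1 of Akt-LECs and Akt-liver ECs, with 0.366 and -0.05 for numbers 2 and 3. The next was 0.415, for number 1 of Akt-RACVECs and Akt-LECs, with -0.165 and 0.179 for numbers 2 and 3. Whether the numbers stand for shared isolates cannot be told from these correlations. In no comparison did every library correlate best with its own number.

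Leaving out 1 library at a time gave 2 to 3 members called in RACVECs against MACs, 5 to 7 in Akt-RACVECs against Akt-MACs, 3 to 5 in Akt-LECs against Akt-MACs, 0 to 1 in Akt-MACs against MACs, 2 in Akt-liver ECs against LSECs and 0 to 2 in the interaction. The difference in S1pr1 share was 52.7 to 74.6 points for RACVECs against MACs, 14.6 to 36.4 for Akt-RACVECs and 12.1 to 34.0 for Sox17-RACVECs against RACVECs, and 0.12 to 4.65 for Akt-liver ECs against LSECs.

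Signs turned in values that were not called, except Arrb2 in Akt-LECs against Akt-MACs (0.01 without Akt-MACs 2 and 3). Over the libraries left out, log2 differences ran from -0.35 to 0.20 for Adgra2 in RACVECs against MACs and from -0.31 to 4.24 for Adgrl4 in Akt-RACVECs against RACVECs. In Sox17-RACVECs against RACVECs they ran from -0.34 to 0.23 (Adgra2), -1.27 to 2.77 (Adgrl4) and -1.21 to 0.12 (S1pr2), and in Akt-MACs against MACs from -0.19 to 0.46 (S1pr1) and -0.31 to 0.14 (S1pr2). In Akt-RACVECs against Akt-LECs the ranges were -0.22 to 0.35 (S1pr1), -1.76 to 0.60 (S1pr2), -1.38 to 2.39 (S1pr3) and -0.31 to 0.33 (Spns2), and in RACVECs against Akt-LECs -0.05 to 0.50 (Adgra2) and -0.78 to 0.21 (Adgrf5). Between Akt-LECs and Akt-liver ECs they were -0.53 to 1.08 (Adgrg1), -0.19 to 0.38 (S1pr1), -1.80 to 0.56 (S1pr2) and -1.72 to 2.48 (S1pr3), between Akt-liver ECs and LSECs -0.01 to 0.99 (S1pr2) and -1.02 to 1.80 (S1pr3), and in the interaction -1.68 to 2.87 (Adgrl4) and -1.26 to 2.93 (S1pr3).

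Without Akt-MACs 2 and 3, Adgra2 was at -0.28 in Akt-RACVECs against Akt-MACs and -0.16 in the interaction, S1pr3 at -0.83 in the interaction, and S1pr1 at -0.02 in Akt-MACs against MACs. Without Akt-LEC 1 and Akt-liver EC 1, Akt-RACVECs against Akt-LECs had S1pr1 at -0.22, S1pr2 at 0.60 and S1pr3 at 2.39, RACVECs against Akt-LECs Adgrf5 at 0.17, and Akt-liver ECs against LSECs S1pr2 at -0.01 and S1pr3 at -1.02. A pseudocount of 0.1 gave S1pr3 0.34 in Akt-RACVECs against Akt-LECs and -0.07 in Akt-liver ECs against LSECs, and Adgrl4 -1.63 in the interaction. Scaling by median ratio, which moved group means by -0.114 to 0.068, gave S1pr1 -0.04 in Akt-MACs against MACs and Adgra2 0.06 in Sox17-RACVECs against RACVECs. The criterion of the study gave S1pr3 0.68 in Akt-LECs against Akt-MACs, S1pr1 -0.00 in Akt-MACs against MACs and S1pr2 0.18 in Akt-LECs against Akt-liver ECs. Depth is unknown, so no limit can be set for genes listed at 0.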
